A study of Mus musculus with 24 samples.

Results

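Integrin and laminin subunit genes were followed across 8 groups of mouse embryonic stem cells. Members were all gene symbols of the count tables that begin with Itga, Itgb, Lama, Lamb or Lamc and continue with a number. This rule found 31 of 22609 genes, 20 of them for integrin subunits and 11 for laminin chains. Of these, 28 reached a group mean of at least 1 CPM (gene counts scaled to a common library total, with TMM factors) in at least 1 group, 17 for integrin subunits and all 11 for laminin chains. The rule leaves out integrin alpha genes named with a letter, such as Itgav, which are described separately.

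Integrins are cell surface receptors built from 1 alpha and 1 beta subunit, and they tie the actin cytoskeleton to the matrix outside the cell. The alpha subunit largely sets the ligand: Itga3, Itga6 and Itga7 pair with Itgb1 to bind laminin, Itga1, Itga2, Itga10 and Itga11 bind collagen, and Itga5, Itga8 and Itga2b bind proteins that carry the arginine-glycine-aspartate motif. Laminins are trimers of an alpha, a beta and a gamma chain and form the sheet on which basement membranes are built. In the early mouse embryo, laminin with the Lama1, Lamb1 and Lamc1 chains is made in quantity by the extraembryonic endoderm, and laminin with the Lama5 chain supports self-renewal of cultured stem cells.

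All samples came from E14TG2a cells, a line from a 129/Ola blastocyst grown without feeder cells in serum and LIF, the cytokine that holds such cells in the pluripotent state. In the pluripotent state (mESCs) there were 5 groups of 3 libraries: untransfected cells, and cells stably carrying shNMC (a hairpin with no mammalian target), shMed12, shCdk8 or shRing1b. Another 3 groups of 3 libraries, with shNMC, shMed12 or shCdk8, had LIF withdrawn and all-trans retinoic acid (RA) added at 1e-06 M for 24 h. Med12 and Cdk8 encode parts of the kinase module of Mediator, and Ring1b, whose gene symbol is Rnf2, is the catalytic subunit of Polycomb repressive complex 1. The labels do not say whether a stable line was 1 clone or a pool, nor whether replicates were separate cultures, so the tests measure the spread between these libraries, which may be technical. The further groups named in the series' design were not analysed here.

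Libraries held 27.4 M to 57.3 M gene-assigned counts. The 6 untransfected and shRing1b libraries had 27.4 M to 34.1 M, with reads aligned to several places making up 20% to 21.7% of the records in their tables, against 37.8 M to 57.3 M and 44.1% to 49.1% in the other 18. The set of libraries and the step from untransfected to shNMC cells therefore cannot be told apart. The targeted genes followed their labels with 1 exception. Med12 was at 35.2, 43.7 and 46.2 CPM in shMed12 mESCs against 129 to 139.6 CPM in shNMC mESCs, and at 38.8, 45.6 and 61.2 CPM against 94.1 to 144 CPM after RA. Cdk8 was at 10.7 to 15.2 CPM in shCdk8 mESCs against 50.1 to 56.1 CPM, and at 8.21 to 12.4 CPM against 42.6 to 48.1 CPM after RA. Rnf2 was at 52.4 and 64.2 CPM in 2 of the shRing1b libraries, but at 207 CPM in the library labelled shRing1b replicate 3, close to the 221 to 303 CPM of untransfected cells.

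Levels of different genes were compared only per kilobase of coding length. On that scale, Itgb1 stood highest of the 8 beta subunits in all 8 groups, at 144 CPM per kb in shNMC mESCs against 12.5 for Itgb7 and 11.6 for Itgb5, the next in order. Itga6 and Itga5, the fibronectin receptor subunit, led the alpha subunits in shNMC mESCs at 90.4 and 60.7 CPM per kb. In shMed12 mESCs the order of these levels changed, with Itga3 at 71.2, Itga6 at 65.7 and Itga5 at 57.1 CPM per kb. After RA, Itga3 stood at 138 CPM per kb in shMed12 cells and at 24.3 in shNMC cells. Among laminin chains, Lamc1 led in all 8 groups, at 137 CPM per kb in shNMC mESCs, followed by Lamb1 at 43.1 and Lama5 at 39.4. Neighbours at these ranks can lie within the spread of their libraries, and the order was not tested.

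**Figure D1:**
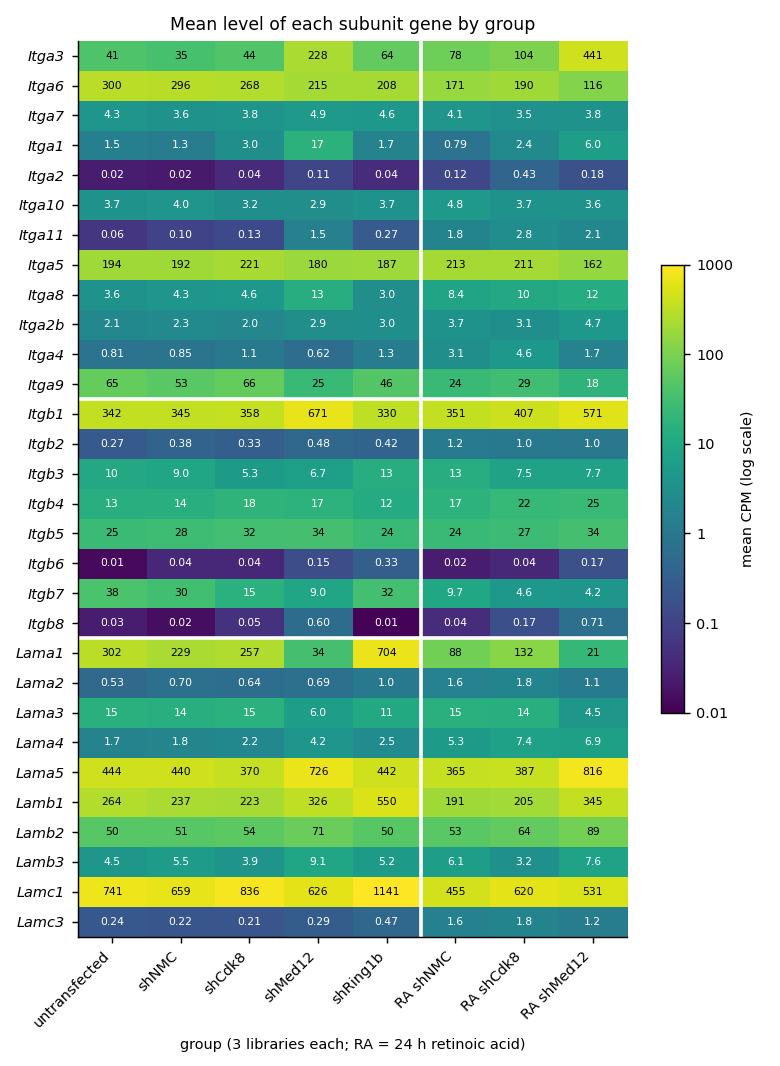
Mean CPM of 30 of the 31 integrin and laminin subunit genes (rows) in the 8 groups (columns, 3 libraries each), with colour on a log scale and the mean printed in each cell. Itgb1, Itga6, Itga5, Lama5, Lamb1 and Lamc1 lie above 100 CPM in every group, Itga3 passes 200 CPM in both shMed12 groups, and Itga2, Itgb6 and Itgb8 stay under 1 CPM throughout.

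At the low end, 3 members stayed under 1 CPM in every group. The highest group mean was 0.431 CPM for Itga2, 0.327 CPM for Itgb6 and 0.714 CPM for Itgb8. All 31 members passed the filter on low counts and were among the 16280 genes tested. The filter asks for a minimum level in as many libraries as the smallest group holds. Itga2, Itgb6 and Itgb8 could therefore pass it through the libraries where they were highest. These were RA-treated shCdk8 cells for Itga2, shRing1b together with shMed12 libraries for Itgb6 and both shMed12 groups for Itgb8. Itga11 was at 0.0628 to 0.132 CPM in untransfected, shNMC and shCdk8 mESCs. It could likewise pass through shMed12 mESCs and the RA groups, at 1.48 to 2.79 CPM. Calls of these genes as higher there are counted below but are not independent of the filter. The number of members at or above 1 CPM was 23 in untransfected and in shNMC mESCs, 24 in shCdk8 and in shMed12 mESCs and 25 in shRing1b mESCs. After RA it was 27 in shNMC cells and 28 in shCdk8 and in shMed12 cells.

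Promoter sequence was matched for 20 of the 31 members, with 23 entries, from RefSeq on build GRCm38.p6, covering the 250 bases before the annotated start. The counts themselves were made on build mm9, and no coordinate was carried between the builds. The 5 windows printed here belong to 3 abundant members that rose in shMed12 mESCs, Itga3, Lama5 and Itgb1, and to 2 that rose there from about 1 CPM or less, Itga1 and Itga11. Both strands were searched for an AP-1 element (TGANTCA), a TEAD element (GGAATG) and a GC box (GGGCGG). Capitals mark the matches, and each window is written 5′ to 3′ on the gene's own strand.
Itga3, chr11:95076715-95076964, reverse strand: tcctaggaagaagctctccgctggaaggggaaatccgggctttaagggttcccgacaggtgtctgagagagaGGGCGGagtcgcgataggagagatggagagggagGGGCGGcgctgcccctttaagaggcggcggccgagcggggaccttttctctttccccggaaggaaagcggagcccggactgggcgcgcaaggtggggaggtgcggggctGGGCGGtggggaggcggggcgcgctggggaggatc
Lama5, chr2:180225860-180226109, reverse strand: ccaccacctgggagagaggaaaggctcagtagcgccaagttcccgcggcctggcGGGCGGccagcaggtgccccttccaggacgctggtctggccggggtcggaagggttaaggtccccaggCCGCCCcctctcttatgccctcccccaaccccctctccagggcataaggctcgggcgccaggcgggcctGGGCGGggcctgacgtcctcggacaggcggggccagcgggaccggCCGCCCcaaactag
Itgb1, chr8:128685404-128685653, forward strand: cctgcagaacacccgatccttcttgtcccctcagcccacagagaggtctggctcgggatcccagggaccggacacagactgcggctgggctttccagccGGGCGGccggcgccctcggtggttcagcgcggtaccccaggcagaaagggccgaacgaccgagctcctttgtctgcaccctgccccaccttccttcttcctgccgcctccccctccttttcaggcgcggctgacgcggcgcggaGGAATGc
Itga1, chr13:115101965-115102214, reverse strand: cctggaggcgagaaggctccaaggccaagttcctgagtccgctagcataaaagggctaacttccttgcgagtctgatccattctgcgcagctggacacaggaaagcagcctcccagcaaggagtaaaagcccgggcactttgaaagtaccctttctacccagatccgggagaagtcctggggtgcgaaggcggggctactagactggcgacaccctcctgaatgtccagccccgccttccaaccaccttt
Itga11, chr9:62677605-62677854, forward strand: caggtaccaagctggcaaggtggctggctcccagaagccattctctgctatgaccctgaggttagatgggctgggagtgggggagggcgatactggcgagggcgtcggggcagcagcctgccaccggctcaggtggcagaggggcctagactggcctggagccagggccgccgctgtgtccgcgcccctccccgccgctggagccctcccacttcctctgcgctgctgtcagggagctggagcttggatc
The Lama5 window held 4 GC boxes and the first Itga3 window held 3, while the Itgb1 window held 1 GC box and 1 TEAD element. No match lay in the windows of Itga1 and Itga11. Over all 23 entries, 8 held a GC box (34.8%), 3 a TEAD element (13%) and 0 an AP-1 element. Of all 32851 promoters of the same length in the table, 32.7% held a GC box, 12.6% a TEAD element and 6.75% an AP-1 element. A match is a stretch of letters and not a shown binding site. No window was matched for Itga6, Itga7, Itgb2, Itgb3, Itgb4, Lama1, Lama3, Lama4, Lamc1 and Lamc3.

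The first comparison asked which members differed in pluripotent cells with the Med12 hairpin. In shMed12 mESCs, Itga3 stood about 6.57-fold above shNMC mESCs, its partner Itgb1 1.95-fold, and the collagen receptor genes Itga1 and Itga11 12.7-fold and 14.4-fold. Lama1 was 6.68-fold lower, while Lama5 was 1.65-fold higher. Of the 31 members, 11 (35.5%) were called higher at an adjusted p under 0.05, beside 20.6% of all genes tested, and 6 (19.4%) were called lower, beside 19.9%. The members' median log2 change was 0.44, against -0.01 for all genes. Adjusted p-values here and below come from edgeR's quasi-likelihood test, two-sided, with Benjamini-Hochberg adjustment over all 16280 genes. In these bulk libraries, fewer cells of a type and less RNA per cell cannot be told apart. Here and below, lack of overlap between groups is stated gene by gene. Its share over all genes was not computed, so it is not a result about the members as a set.

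Among laminin-binding alpha subunits, Itga3, which is abundant in epithelia, was at 229.8, 213 and 242 CPM in the shMed12 libraries. In the shNMC libraries it was at 33.2, 29.8 and 41.2 CPM, so the groups were far apart (log2 change 2.72, SE 0.15, adjusted p = 1.39e-11). Itga6, a long-used surface marker of stem cells, went the other way, at 215 ± 25.2 CPM against 296 ± 2.95 CPM (SD, n = 3 each; log2 change -0.46, SE 0.15, adjusted p = 0.0175). Itga7, best known from muscle, was at 4.92 ± 0.569 against 3.61 ± 0.363 CPM (adjusted p = 0.0397). Exons of Itga7 overlap the gene Mettl7b on the other strand, and the strand setting of the counting is not given in the sources used here. Mettl7b was at 0.464 CPM in shMed12 mESCs and 0.0164 CPM in shNMC mESCs.

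Of the 4 collagen-binding alpha subunits, 3 were called higher and 0 lower. Itga1, a receptor for collagen IV, was at 15.6, 20 and 14.1 CPM in shMed12 mESCs and at 1.56, 1.12 and 1.23 CPM in shNMC mESCs (log2 change 3.66, SE 0.41, adjusted p = 2.4e-07). Itga11, a receptor for fibrillar collagen found on mesenchymal cells, was at 1.27, 1.51 and 1.65 CPM against 0.145, 0.0787 and 0.0737 CPM (log2 change 3.85, SE 0.37, adjusted p = 3.03e-08). Every shMed12 library lay above every shNMC library for both genes. Itga11 could pass the filter on low counts through shMed12 and RA-treated libraries, so its call is not independent of the filter. Itga10 was at 2.92 ± 0.429 against 3.97 ± 0.360 CPM and was not called (adjusted p = 0.126). Itga2, under 1 CPM throughout, was called higher.

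Of the subunits that recognise arginine-glycine-aspartate, Itga8, whose best-known ligand is nephronectin, was at 13.3, 14.9 and 11.2 CPM in shMed12 mESCs and at 4.90, 3.91 and 4.08 CPM in shNMC mESCs (log2 change 1.61, SE 0.17, adjusted p = 8.21e-08). The 3 shMed12 libraries lay above all shNMC libraries. Itga5 (180.3 ± 22.9 against 192 ± 10.9 CPM, adjusted p = 0.619) and Itga2b, the platelet fibrinogen receptor subunit (2.91 ± 0.268 against 2.33 ± 0.584 CPM, adjusted p = 0.385), were not called. Itgav, which is outside the naming rule and pairs with several beta subunits, was at 142, 146 and 126 CPM against 83.3, 71.4 and 78.3 CPM (log2 change 0.83, adjusted p = 4e-08).

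The Itga4 and Itga9 subunits form their own class and bind fibronectin, tenascin and VCAM-type ligands. Itga9 was at 21.3, 23.3 and 29.3 CPM in shMed12 mESCs and at 51.7, 58.5 and 49.4 CPM in shNMC mESCs, with all shMed12 libraries below (log2 change -1.11, SE 0.16, adjusted p = 1.02e-05). Itga4 was at 0.616 ± 0.0889 against 0.855 ± 0.329 CPM and was not called (adjusted p = 0.374). Its exons overlap Cerkl on the other strand, and Cerkl was called lower, at 0.682 against 4.10 CPM.

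Among beta subunits, Itgb1, the common partner of the laminin and collagen receptors, was at 703, 703 and 606 CPM against 344, 368 and 322 CPM (log2 change 0.96, SE 0.10, adjusted p = 7.09e-08). Itgb7, known from lymphocyte homing, was at 8.29, 8.52 and 10.3 CPM against 26.6, 32.4 and 31.5 CPM (log2 change -1.74, SE 0.27, adjusted p = 2.25e-05). The groups did not overlap for either gene. Itgb3, the partner of Itgav and Itga2b, was at 6.72 ± 0.607 against 9.05 ± 0.765 CPM (adjusted p = 0.0395). Itgb8, which could pass the filter on low counts through the shMed12 groups, was called higher at under 1 CPM. Itgb2, Itgb4, Itgb5 and Itgb6 were not called.

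The laminin alpha chains split. Lama1 was at 29.3, 32.5 and 40.9 CPM in shMed12 mESCs and at 209, 246 and 232 CPM in shNMC mESCs (log2 change -2.74, SE 0.48, adjusted p = 9.09e-05). Lama3, a chain of epithelial basement membranes, was at 5.72, 5.93 and 6.30 CPM against 14.8, 13.7 and 13.8 CPM (log2 change -1.24, SE 0.22, adjusted p = 9.68e-05). For both chains all shMed12 libraries lay below all shNMC libraries.

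Lama4, typical of vessels and mesenchyme, was at 4.34, 4.62 and 3.65 CPM against 2.01, 1.65 and 1.87 CPM (log2 change 1.19, SE 0.21, adjusted p = 9.91e-05). Lama5 was at 726 ± 119 against 439.9 ± 52.7 CPM (log2 change 0.72, SE 0.18, adjusted p = 0.0026). Both chains were thus higher where Lama1 and Lama3 were lower. Lama2, the muscle chain, was at 0.695 ± 0.0852 against 0.698 ± 0.0597 CPM.

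Of the beta and gamma chains, Lamb3, a chain of epithelial laminin, was at 9.07 ± 0.126 against 5.52 ± 2.42 CPM and was not called (adjusted p = 0.176). Lamc1 was at 626 ± 59.0 against 659 ± 57.1 CPM (adjusted p = 0.823). Lamb1 was at 318, 317 and 344 CPM against 218, 251 and 242 CPM, so its groups did not overlap, yet it was not called (log2 change 0.46, SE 0.32, adjusted p = 0.271). When the 3 shRing1b libraries, which differ widely from each other in Lamb1, were left out of the fit, the SE fell to 0.08 and the adjusted p to 4.45e-05. Lamb2 (adjusted p = 0.0421) and Itga10 (adjusted p = 0.0477) also passed in that fit, which was chosen after the data were seen.

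**Figure D2:**
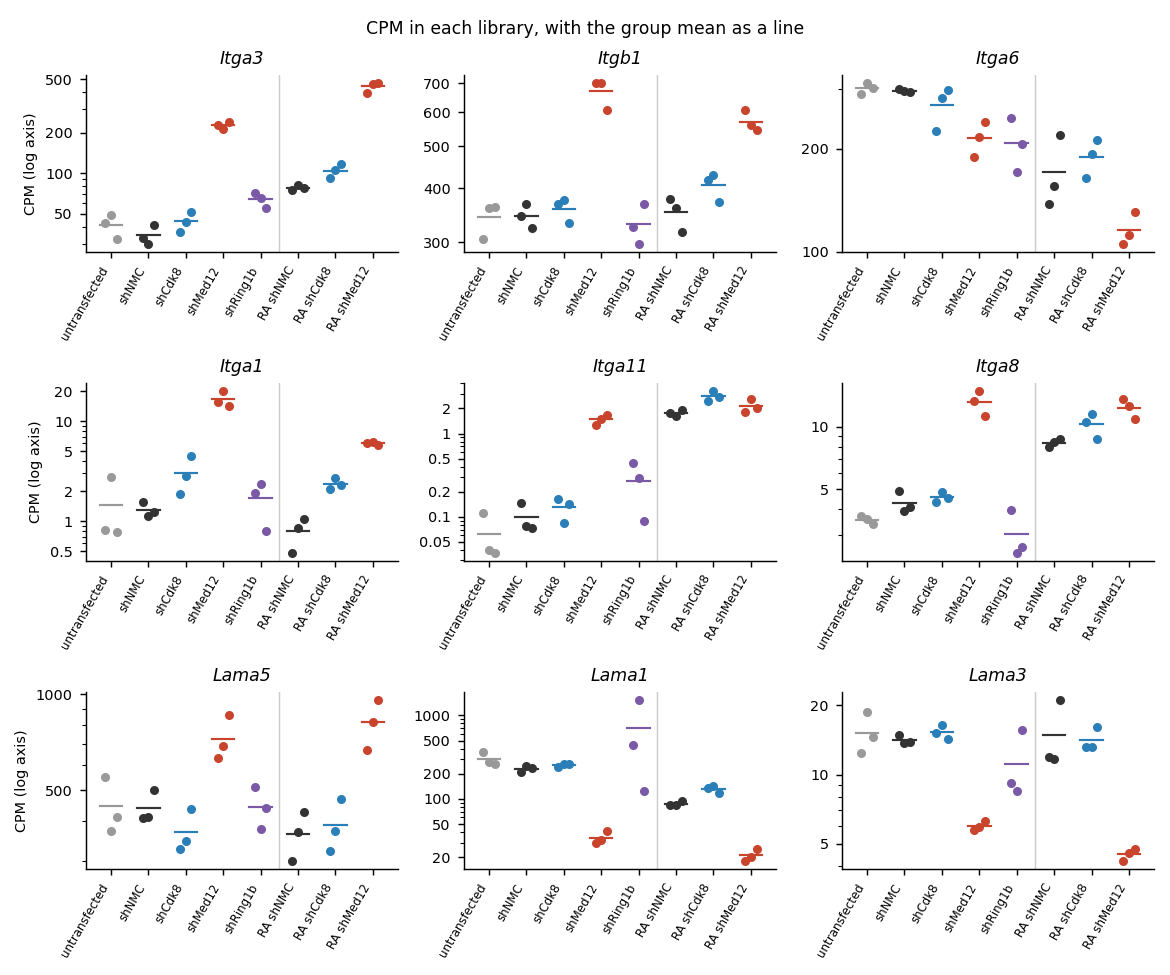
CPM in each of the 24 libraries (points, log axis) with the group mean (line) for 9 members, with mESCs left of the grey line and RA-treated cells right of it. Both shMed12 groups stand above their shNMC groups for Itga3, Itgb1, Itga1 and Lama5 and below them for Itga6, Lama1 and Lama3, and the 3 shRing1b libraries spread from 123 to 1542 CPM for Lama1.

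Of the 17 calls in this comparison, those of Itga2, Itga6, Itga7 and Itgb3 did not hold under every alternative. Itga6 lost its call without shMed12 replicate 1 (adjusted p = 0.0934), shMed12 replicate 2 (0.0513) or shNMC replicate 1 (0.0534). Itga7 lost it when either of shMed12 replicates 1 and 2 or of shNMC replicates 1 and 3 was left out (0.052 to 0.134), Itgb3 without any library other than shNMC replicate 2 (0.0689 to 0.153) and Itga2 when either of shMed12 replicates 1 and 3 or of shNMC replicates 1 and 2 was left out (0.0573 to 0.152).

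Genes of fixed lists around the members were read in the same comparison, in which 20.6% of all genes tested were called higher and 19.9% lower. Of 23 basement membrane partners, 12 were called higher and 3 lower. The largest calls were Col4a3, a collagen IV chain, at 0.381 against 0.0135 CPM, Smoc2 at 0.363 against 0.0462 CPM, Nid1, the nidogen that links laminin to collagen IV, at 221 against 583 CPM (log2 change -1.40, adjusted p = 5.23e-09), and Frem1 at 0.809 against 1.88 CPM. Of 13 tested other integrin ligands, 6 were higher and 0 lower, led by Tnc (tenascin C), at 6.49 against 0.0364 CPM, and Thbs1 (thrombospondin), at 286 against 3.02 CPM (log2 change 6.56, adjusted p = 3.28e-09). The shNMC means of Col4a3, Smoc2 and Tnc lay under 0.059 CPM, which is 3 counts in the deepest shNMC mESC library. The size and rank of their rises are therefore uncertain.

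On the inner side of the membrane, 17 of 34 genes of the integrin adhesion complex were called higher and 5 lower. Over all genes tested the shares were 20.6% and 19.9%. Parva, which binds integrin-linked kinase, was at 86.8 against 10.3 CPM (log2 change 3.07, adjusted p = 1.56e-07) and Flnc, a filamin, at 124 against 15.5 CPM (log2 change 3.0, adjusted p = 1.95e-10), while Parvg was at 1.06 against 4.53 CPM and Tns1 at 9.32 against 18.3 CPM. Of 6 other laminin receptors, 5 were higher and 0 lower, with Sdc4 at 125 against 46.7 CPM and Bcam, a receptor for the Lama5 chain, at 235 against 125 CPM. Of 4 tested hemidesmosome genes, 2 were higher, Col7a1 (23.7 against 5.49 CPM) and Plec (120.1 against 87.1 CPM). Of 3 tested leukocyte integrin genes outside the naming rule, 2 were lower, Itgam (1.14 against 3.99 CPM) and Itgal (4.5 against 10.3 CPM).

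Markers of other cell types moved with this comparison, in which 20.6% of all genes tested were called higher and 19.9% lower. Of 11 trophectoderm markers tested, 10 were called higher and 0 lower, and their summed level was 599 to 779.6 CPM in shMed12 mESCs against 25.7 to 32.2 CPM. Of 12 fibroblast markers tested, 9 were higher and 1 lower, with sums of 350.0 to 396 against 18.2 to 21.2 CPM. Of 14 extraembryonic endoderm markers, 1 was higher and 6 lower, with sums of 37.2 to 42.6 against 91.1 to 121 CPM and Ttr at 0 in every shMed12 library. Of 8 pluripotency markers, 0 were higher and 7 lower, with sums of 3249 to 3486 against 5662 to 5715 CPM. Of 4 neural markers, 1 was higher and 1 lower (123 to 128 against 67.6 to 73.9 CPM). Their part in the changes of the members was not tested.

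The second comparison asked how the members differed after RA between the same 2 hairpins. After RA, Itga3 was 5.65-fold and Lama5 2.24-fold higher in shMed12 cells, while Lama1 was 4.16-fold and Lama3 3.30-fold lower. Of the 31 members, 12 (38.7%) were called higher, beside 21.3% of all genes tested, and 8 (25.8%) lower, beside 20.6%. The members' median log2 change was 0.33, against -0.00 for all genes. Members called higher both in mESCs and after RA included Itga1, Itga3, Itga8, Itgb1, Itgb8 and Lama5, and called lower in both were Itga6, Itga9, Itgb3, Itgb7, Lama1 and Lama3. Different libraries entered the 2 comparisons, but both used the same 2 hairpins and the same fit. The share of all genes called in both was not computed, so this list is not a result about the members as a set.

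Itga3 was at 395, 457 and 471 CPM in RA-treated shMed12 cells and at 74.7, 81.2 and 78.0 CPM in RA-treated shNMC cells (log2 change 2.5, SE 0.15, adjusted p = 5.01e-11). Itga1 was at 6.00, 6.22 and 5.79 CPM against 0.483, 0.852 and 1.04 CPM (log2 change 2.92, SE 0.41, adjusted p = 6.17e-06). Itgb1 was at 571 ± 32.4 against 351 ± 30.8 CPM (log2 change 0.70, SE 0.10, adjusted p = 5.99e-06). The laminin-binding and collagen-binding receptor genes Itga3, Itga1 and Itgb1 thus kept non-overlapping groups after RA, as the plot of CPM by library shows.

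Itgb7 was at 3.67, 5.03 and 3.95 CPM in shMed12 cells and at 7.70, 8.27 and 13.1 CPM in shNMC cells after RA (log2 change -1.2, SE 0.27, adjusted p = 0.00134). Lama1 was at 18.0, 20.4 and 25.2 CPM against 85.7, 84.5 and 94.1 CPM (log2 change -2.06, SE 0.47, adjusted p = 0.00134). Lama3 was at 4.21, 4.55 and 4.77 CPM against 11.9, 11.7 and 21.1 CPM (log2 change -1.72, SE 0.22, adjusted p = 2.05e-06). None of these 3 genes had overlapping groups.

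Lama5 was at 668, 819 and 961 CPM in shMed12 cells and at 299, 369.9 and 426 CPM in shNMC cells after RA (log2 change 1.16, SE 0.18, adjusted p = 2.38e-05). Lamb2, a chain of neuromuscular and kidney basement membranes, was at 88.5 ± 15.9 against 52.8 ± 9.82 CPM (log2 change 0.75, adjusted p = 0.00733). For Lama5 and Lamb2 every shMed12 library lay above every shNMC library.

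Lamb1 was at 345 ± 13 against 191 ± 9.29 CPM after RA (log2 change 0.85, SE 0.33, adjusted p = 0.0393). That call was lost without any 1 of the 6 libraries compared (adjusted p 0.0738 to 0.107), without the filter on low counts (0.0792) and with the replicate number as a block (0.0502). With the shRing1b libraries left out of the fit the SE fell to 0.08 and the adjusted p to 1.22e-08. In this last fit Lama2 and Lama4 passed as well.

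The remaining calls after RA were under 2-fold for members above 1 CPM. Itga8 (12.4 ± 1.39 against 8.38 ± 0.337 CPM), Itgb4, the hemidesmosome subunit (24.8 ± 1.73 against 17.4 ± 2.78 CPM), and Itgb5, a vitronectin receptor subunit (34.0 ± 3.21 against 23.7 ± 4.02 CPM), were higher. Itga4 (1.67 ± 0.225 against 3.10 ± 0.649 CPM), Itga5 (162 ± 22.1 against 213 ± 32.0 CPM), Itga6 (116 ± 13.4 against 171 ± 42.6 CPM), Itga9 (17.7 ± 1.75 against 24.1 ± 4.36 CPM) and Itgb3 (7.74 ± 0.987 against 13 ± 2.55 CPM) were lower. Cerkl, which overlaps Itga4 on the other strand, was at 0.724 CPM in RA-treated shMed12 cells and 2.19 CPM in RA-treated shNMC cells. Its part in the Itga4 counts was not tested. Itgb6 and Itgb8, under 1 CPM in every group, were also called higher. Both could pass the filter on low counts with the help of shMed12 libraries, so these calls add no support.

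Some of these smaller calls were lost when 1 of several libraries was left out. All genes called also fell, from 6814 to between 5384 and 6011. Itga4 was lost when either of shMed12 replicates 2 and 3 or of shNMC replicates 1 and 2 was left out (adjusted p 0.058 to 0.136), and Itgb5 when replicate 1 or 2 of either hairpin was (0.0503 to 0.101). Itga5 (0.0586 to 0.0919) and Itga9 (0.054 to 0.149) were lost with shMed12 replicate 1, shMed12 replicate 2 or shNMC replicate 3 left out.

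The marker lists again moved with the hairpin after RA, where 21.3% of all genes tested were called higher and 20.6% lower. Of 11 trophectoderm markers, 9 were higher and 0 lower, with sums of 729 to 954 CPM in shMed12 cells against 50.8 to 63.9 CPM in shNMC cells. Of 12 fibroblast markers, 7 were higher and 1 lower (349 to 392 against 44.0 to 46.1 CPM), and of 14 extraembryonic endoderm markers, 1 was higher and 6 lower (83.7 to 90.3 against 152 to 177 CPM). Of 8 pluripotency markers, 0 were higher and 7 lower, with sums of 1536 to 1658 against 2255 to 2705 CPM. Of 4 neural markers, 1 was higher and 2 lower, with sums of 121 to 126 against 74.8 to 84.6 CPM. Their part in the members' changes was not tested. Among the genes around the members, 10 of 23 basement membrane partners were higher and 4 lower, and 20 of 34 adhesion complex genes were higher and 4 lower.

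**Figure D3:**
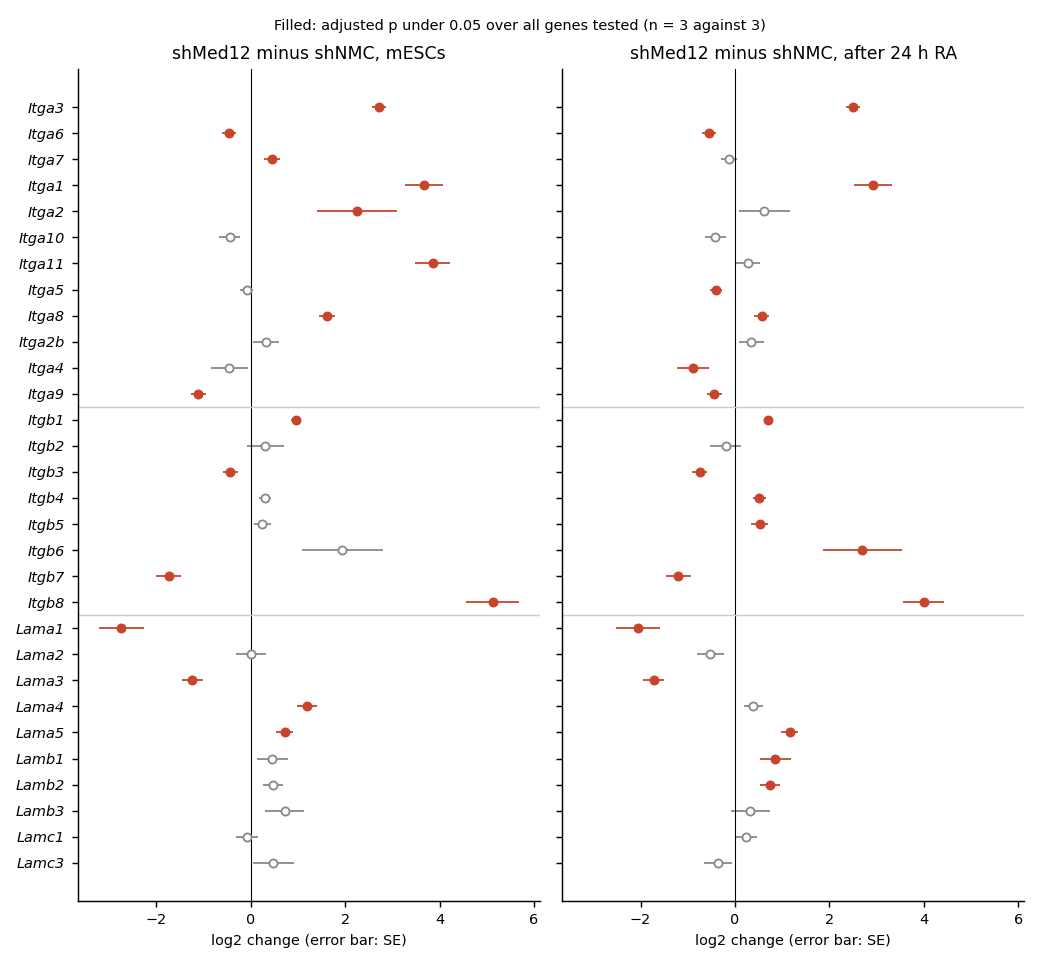
Log2 change of 30 of the 31 members (shMed12 minus shNMC, 3 libraries against 3) in mESCs, left, and after 24 h of RA, right, with bars for the SE and filled points for an adjusted p under 0.05. Itga11 lies at 3.85 in mESCs and at 0.28 after RA, while Itga3 lies at 2.72 and 2.5.

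Whether the shMed12 difference itself changed with RA was tested as an interaction. Of the 31 members, 0 were called with a positive interaction, beside 1.74% of all genes tested, and 2 (6.45%) with a negative one, beside 3.30%. At an unadjusted p under 0.05 there were 1 positive and 4 negative members, while 3003 genes passed in either direction. DESeq2 called 0 positive, beside 3.12% of its genes tested, and 3 negative, beside 4.56%. The 2 called by edgeR were Itga11 and Itga8.

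Itga11 was at 1.75, 1.62 and 1.94 CPM in RA-treated shNMC cells and at 1.81, 2.57 and 2.04 CPM in RA-treated shMed12 cells, so these groups overlapped. In mESCs its levels in the same 2 hairpin groups were 0.0992 ± 0.0400 and 1.48 ± 0.194 CPM. The difference of the 2 log2 changes was -3.57 (SE 0.46, adjusted p = 8.5e-05). Because Itga11 could pass the filter on low counts through the groups other than shNMC mESCs, this call is not independent of the filter. For Itga8, at 8.38 and 12.4 CPM after RA and at 4.30 and 13.2 CPM in mESCs, the difference of the log2 changes was -1.05 (SE 0.23, adjusted p = 0.00806). In both cases shNMC cells reached higher levels with RA while shMed12 cells were already high in the pluripotent state. With the shRing1b libraries left out of the fit, the positive interactions of Lama1 (log2 0.68, adjusted p = 0.0215) and Lamb1 (0.39, 0.0223) and the negative one of Lama4 (-0.80, 0.00825) passed as well.

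The change from mESCs to RA-treated cells was read in shNMC cells, where LIF withdrawal and RA came together and cannot be told apart. With 24 h of RA, the fibrillar collagen receptor gene Itga11 stood 17.2-fold, the laminin chain gene Lamc3 7.5-fold, Itga4 3.65-fold and Lama4 2.86-fold above shNMC mESCs. Itgb7 was 3.11-fold, Lama1 2.60-fold and Itga9 2.21-fold lower. Of the 31 members, 10 (32.3%) were called higher, beside 27.3% of all genes tested, and 5 (16.1%) lower, beside 24.1%. The members' median log2 change was 0.15, against 0.02 for all genes. These comparisons share the shNMC mESC libraries with the shMed12 and shCdk8 comparisons in mESCs, so no overlap between them is given.

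Itga11 went from 0.145, 0.0787 and 0.0737 CPM in shNMC mESCs to 1.75, 1.62 and 1.94 CPM with RA (log2 change 4.11, SE 0.36, adjusted p = 1.1e-08). Itga3 went from 33.2, 29.8 and 41.2 CPM to 74.7, 81.2 and 78.0 CPM (log2 change 1.17, SE 0.15, adjusted p = 1.17e-06). Itga4 went from 0.810, 0.551 and 1.2 CPM to 2.93, 3.82 and 2.55 CPM (log2 change 1.87, SE 0.35, adjusted p = 0.000151). For these 3 alpha subunits no RA library overlapped an mESC library, a gap whose share over all genes was not computed. The call of Itga11 is not independent of the filter on low counts, which it could pass through RA-treated libraries. Cerkl, which overlaps Itga4, was lower with RA (2.19 against 4.10 CPM).

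Itga9 went from 51.7, 58.5 and 49.4 CPM to 20.8, 22.4 and 29.0 CPM (log2 change -1.14, SE 0.16, adjusted p = 5.14e-06). Itgb7 went from 26.6, 32.4 and 31.5 CPM to 7.70, 8.27 and 13.1 CPM (log2 change -1.64, SE 0.27, adjusted p = 3.02e-05). Itgb2, the beta subunit of leukocyte integrins, went from 0.394, 0.334 and 0.418 CPM to 1.04, 1.31 and 1.14 CPM (log2 change 1.6, SE 0.37, adjusted p = 0.000965). The 2 falls were from moderate levels, while the rise of Itgb2 ended near 1 CPM.

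Among laminin chains, Lama4 went from 2.01, 1.65 and 1.87 CPM to 5.11, 5.56 and 5.14 CPM (log2 change 1.51, SE 0.21, adjusted p = 3.78e-06). Lama2 went from 0.644, 0.688 and 0.762 CPM to 1.39, 1.6 and 1.84 CPM (log2 change 1.21, SE 0.30, adjusted p = 0.00183). Lamc3, a rarer gamma chain, went from 0.228, 0.0787 and 0.344 CPM to 1.52, 1.37 and 1.92 CPM (log2 change 2.91, SE 0.37, adjusted p = 1.49e-06). All 3 of these chains rose from low levels.

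Lama1 went from 209, 246 and 232 CPM to 85.7, 84.5 and 94.1 CPM (log2 change -1.38, SE 0.45, adjusted p = 0.0152). That call was lost without RA shNMC replicate 1 (adjusted p = 0.0521) or 2 (0.0532). Every RA library lay below every mESC library.

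Smaller calls were Itga8, from 4.30 ± 0.527 to 8.38 ± 0.337 CPM, and Itgb3, from 9.05 ± 0.765 to 13 ± 2.55 CPM, which were higher, and Itga6, from 296 ± 2.95 to 171 ± 42.6 CPM, which was lower. Itgb3 lost its call without RA shNMC replicate 3 (adjusted p = 0.0681). Itga2, under 1 CPM, was called higher and lost its call without RA shNMC replicate 3 (0.0899) or without shNMC mESC replicate 1 (0.0661) or 2 (0.115). Lamc1, at 659 ± 57.1 and 455 ± 46.9 CPM, and Lamb1, at 237 ± 16.8 and 191 ± 9.29 CPM, were not called (adjusted p = 0.0569 and 0.439). Without the shRing1b libraries in the fit they were (log2 change -0.54, adjusted p = 6.2e-05, and -0.31, adjusted p = 0.00175).

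Around the members, RA left 11 of 23 basement membrane partners higher and 3 lower, with Col4a3 (0.235 against 0.0135 CPM) and Col4a4 (0.626 against 0.0825 CPM) leading the rises and Nid1 (232 against 583 CPM) and Nid2 (357 against 559 CPM) the falls. Over all genes tested, 27.3% were called higher and 24.1% lower. Of 34 adhesion complex genes, 11 were higher and 9 lower, near those shares. The largest were Tgfb1i1 (24.5 against 3.33 CPM) and Parva (38.6 against 10.3 CPM), which were higher, and Tns3 (123 against 428 CPM) and Parvb (59.8 against 169 CPM), which were lower. Of 13 tested other ligands, 6 were higher, led by Tnc (0.277 against 0.0364 CPM) and Cyr61 (35.3 against 8.51 CPM), and 3 lower, led by Icam1 (60.8 against 154 CPM) and Tgfb1 (3.86 against 6.04 CPM). The mESC means of Col4a3 and Tnc lay under 0.059 CPM, which is 3 counts in the deepest shNMC mESC library. The size and rank of these 2 rises are therefore uncertain.

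Of the 6 other laminin receptors, Sdc2 (26.0 against 11.7 CPM) and Dag1, the dystroglycan gene (357 against 241 CPM), were higher with RA and Sdc1 (14.4 against 21.1 CPM) was lower. Of 4 hemidesmosome genes, Col7a1 (12.9 against 5.49 CPM) was higher and Dst (429 against 894 CPM) and Plec (50.8 against 87.1 CPM) were lower. Itgam was the 1 leukocyte integrin of 3 tested that was higher (11.4 against 3.99 CPM). Beside these lists, 27.3% of all genes tested were called higher and 24.1% lower. Of 8 pluripotency markers, 7 were lower with RA, their sum going from 5662 to 5715 CPM down to 2255 to 2705 CPM. Of 11 trophectoderm markers, 8 were higher and 0 lower, with sums of 50.8 to 63.9 CPM with RA against 25.7 to 32.2 CPM. Of 12 fibroblast markers, 6 were higher and 1 lower (44.0 to 46.1 against 18.2 to 21.2 CPM), and of 14 extraembryonic endoderm markers, 2 were higher (152 to 177 against 91.1 to 121 CPM). The part of these markers in the members' changes was not tested.

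In shMed12 cells, RA left 6 of the 31 members higher (19.4%, beside 19.6% of all genes tested) and 5 lower (16.1%, beside 17.5%). Itga1 went from 15.6, 20 and 14.1 CPM to 6.00, 6.22 and 5.79 CPM (log2 change -1.46, SE 0.36, adjusted p = 0.00306). Itga4 went from 0.669, 0.513 and 0.665 CPM to 1.91, 1.46 and 1.65 CPM (log2 change 1.43, SE 0.37, adjusted p = 0.00423). Neither gene had overlapping groups.

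Itgb7 went from 8.29, 8.52 and 10.3 CPM to 3.67, 5.03 and 3.95 CPM in shMed12 cells (log2 change -1.10, SE 0.28, adjusted p = 0.00342). Itgb2 went from 0.462, 0.564 and 0.403 CPM to 1.10, 0.998 and 0.951 CPM (log2 change 1.10, SE 0.36, adjusted p = 0.0205). Lamc3 went from 0.277, 0.282 and 0.322 CPM to 1.10, 1.59 and 1.04 CPM (log2 change 2.07, SE 0.36, adjusted p = 0.000125). These 3 moved in the direction they took in shNMC cells, and none of their interactions was called.

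Further calls in shMed12 cells with RA were Itga3 (228 ± 14.4 to 441 ± 40.2 CPM), Itgb4 (17.2 ± 1.23 to 24.8 ± 1.73 CPM) and Lama4 (4.2 ± 0.500 to 6.90 ± 0.0791 CPM), which were higher, and Itga6 (215 ± 25.2 to 116 ± 13.4 CPM) and Itga9 (24.7 ± 4.17 to 17.7 ± 1.75 CPM), which were lower. Itga9 lost its call without RA shMed12 replicate 1 (adjusted p = 0.0811) or mESC shMed12 replicate 3 (0.127). Itgb2 lost it without RA shMed12 replicate 1 (0.0618) or mESC shMed12 replicate 1 (0.0602) or 3 (0.0839). Leaving the shRing1b libraries out of the fit raised the falls called from 5 to 9, adding Itga7, Itgb1, Lama1 and Lamc1, while the share of all genes called lower rose from 17.5% to 22%. The cell type markers moved here too, with 19.6% of all genes tested called higher and 17.5% lower. Of 8 pluripotency markers 7 were lower with RA, their sum going from 3249 to 3486 CPM down to 1536 to 1658 CPM. Of 14 extraembryonic endoderm markers 4 were higher and 0 lower, with sums of 37.2 to 42.6 CPM before and 83.7 to 90.3 CPM after. Their part in the members' changes was not tested.

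In the fit over all 24 libraries, few genes were called with the Cdk8 hairpin in mESCs, members included. In shCdk8 mESCs, 0 of 31 members were called higher, beside 2.24% of all genes tested, and 2 (6.45%) lower, beside 1.42%. At an unadjusted p under 0.05 there were 4 higher and 2 lower, while 2969 genes passed in either direction. DESeq2 called 1 higher, beside 4.32% of its genes tested, and 2 lower, beside 3.32%. The 2 lower members were Itgb3, at 4.72, 5.77 and 5.38 CPM against 9.70, 8.2 and 9.24 CPM in shNMC mESCs (log2 change -0.77, SE 0.16, adjusted p = 0.0107), and Itgb7, at 15.4, 14.6 and 16.4 CPM against 26.6, 32.4 and 31.5 CPM (log2 change -0.96, SE 0.26, adjusted p = 0.0435). The groups did not overlap for either gene. Itgb3 lost its call without shCdk8 replicate 1 (adjusted p = 0.0701) or shNMC replicate 1 (0.0595), and Itgb7 without any 1 of the 6 libraries (0.0819 to 0.158). With only the groups compared, 3 members were higher, beside 8.97% of all genes, and 2 lower, beside 6.75%. Itgav was higher in the main fit (102 ± 2.38 against 77.6 ± 5.98 CPM, adjusted p = 0.00791).

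After RA, 3 members (9.68%, beside 4.10% of all genes tested) were called higher with the Cdk8 hairpin and 2 (6.45%, beside 3.64%) lower. With the replicate number as a block, which pairs these libraries, 3 were higher, beside 5.3% of all genes, and 2 lower, beside 5.04%. Itga1 was at 2.12, 2.67 and 2.31 CPM against 0.483, 0.852 and 1.04 CPM in RA-treated shNMC cells (log2 change 1.58, SE 0.40, adjusted p = 0.0184). Itgb7 was at 4.56, 4.02 and 5.17 CPM against 7.70, 8.27 and 13.1 CPM (log2 change -1.08, SE 0.27, adjusted p = 0.017). Itgb3 was at 7.53 ± 0.687 against 13 ± 2.55 CPM (log2 change -0.78, SE 0.16, adjusted p = 0.00406). None of the 3 had overlapping groups, and Itga2 and Itgb8, under 1 CPM throughout, were the other 2 called higher. Itga2 was highest in these shCdk8 cells and could pass the filter on low counts through them, so its call adds no support. Of 8 pluripotency markers, 7 were lower and 0 higher in these shCdk8 cells, with sums of 1594 to 1998 against 2255 to 2705 CPM. The summed extraembryonic endoderm markers were at 227 to 291 against 152 to 177 CPM, with 0 of 14 called. Their part in the members' changes was not tested.

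Most of these calls were lost when 1 of several libraries was left out. Over all alternatives the log2 change stayed at 1.32 to 1.815 for Itga1 and at -1.219 to -0.8114 for Itgb7. All genes called also fell, from 1259 to between 482 and 922 with 1 library left out. Without RA shCdk8 replicate 2, Itga1 (adjusted p = 0.0803), Itga2 (0.105), Itgb7 (0.0965) and Itgb8 (0.0724) were lost, and without RA shNMC replicate 1 or 2 the rises of Itga1 (0.109 and 0.057), Itga2 (0.0766 and 0.0996) and Itgb8 (0.0912 and 0.0908) were lost. Without RA shCdk8 replicate 1, Itga2 (0.0578), Itgb7 (0.0605) and Itgb8 (0.0795) were lost, and without RA shNMC replicate 3, Itgb7 (0.0979). With the shRing1b libraries left out of the fit, 8 members were called higher, beside 9.6% of all genes, among them Lama1 (132 ± 13.2 against 88.1 ± 5.24 CPM, adjusted p = 0.00399) and Lamc1 (619.5 ± 51.2 against 455 ± 46.9 CPM, adjusted p = 0.00258). No member had a called interaction of shCdk8 and RA, beside 0.0307% of all genes with a positive and 0.00614% with a negative one. That count of 0 was also 0 at an unadjusted p under 0.05, which 493 genes passed. It was 0 with DESeq2 too, beside 0.111% of genes positive and 0.0553% negative.

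The 2 hairpins against the Mediator kinase module were set against each other in mESCs. Of the 31 members, 10 (32.3%) were called higher in shMed12 than in shCdk8 cells, beside 18.4% of all genes tested, and 4 (12.9%) lower, beside 17.4%. With the replicate number as a block, which pairs these libraries, 10 were higher, beside 19.6% of all genes, and 5 lower, beside 19%. Itga3 (log2 difference 2.38, SE 0.15, adjusted p = 1.12e-10) was at 229.8, 213 and 242 CPM against 36.7, 43.4 and 51.5 CPM. Itga1 (2.43, SE 0.38, adjusted p = 2.72e-05) was at 15.6, 20 and 14.1 CPM against 1.88, 2.81 and 4.46 CPM, and Itga11 (3.48, SE 0.36, adjusted p = 9.62e-08) at 1.27, 1.51 and 1.65 CPM against 0.166, 0.0851 and 0.144 CPM. In each case the shMed12 libraries lay above all shCdk8 libraries. The call of Itga11 is again not independent of the filter on low counts, which it could pass through shMed12 libraries.

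Itga8 was at 13.3, 14.9 and 11.2 CPM in shMed12 mESCs against 4.33, 4.85 and 4.55 CPM in shCdk8 mESCs (log2 difference 1.52, SE 0.17, adjusted p = 2.32e-07). Itga9 was at 21.3, 23.3 and 29.3 CPM against 60.3, 67.9 and 70.4 CPM (-1.42, SE 0.16, adjusted p = 4.56e-07). Lama1 was at 29.3, 32.5 and 40.9 CPM against 244, 262 and 264 CPM (-2.90, SE 0.48, adjusted p = 5.97e-05). These 3 genes also had no overlap between the hairpins.

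Lama3 was at 5.72, 5.93 and 6.30 CPM against 15.1, 16.5 and 14.2 CPM (log2 difference -1.35, SE 0.22, adjusted p = 4.32e-05). Lamb3 was at 8.96, 9.05 and 9.21 CPM against 3.20, 2.55 and 5.98 CPM (1.21, SE 0.42, adjusted p = 0.0298). Lama3 was thus lower and Lamb3 higher in shMed12 cells, with no overlap.

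Further members called higher in shMed12 than in shCdk8 mESCs were Itgb1 (671 ± 56.1 against 358 ± 23.2 CPM), Lama4 (4.2 ± 0.500 against 2.19 ± 0.121 CPM), Lama5 (726 ± 119 against 369.6 ± 58.9 CPM) and Itgb8. Itgb7 was lower (9.03 ± 1.10 against 15.4 ± 0.890 CPM). Lamb3 lost its call without any 1 of the 6 libraries except shCdk8 replicate 3 (adjusted p 0.0622 to 0.134), and Itgb7 without any except shMed12 replicate 3 (0.0502 to 0.0926). With the shRing1b libraries left out of the fit, Lamb1 and Itga7 were called higher and Lamc1 and Itga4 lower as well, beside 22.3% of all genes higher and 22.1% lower. The marker lists differed between these hairpins as well, beside 18.4% of all genes called higher and 17.4% lower in the main fit. Of 11 trophectoderm markers 10 were higher and 0 lower (599 to 779.6 against 34.7 to 35.2 CPM). Of 8 pluripotency markers 0 were higher and 7 lower (3249 to 3486 against 4958 to 5128 CPM). Of 12 fibroblast markers 9 were higher and 1 lower (350.0 to 396 against 26.2 to 27.7 CPM), and of 14 extraembryonic endoderm markers 1 was higher and 8 lower (37.2 to 42.6 against 145 to 199 CPM). Their part in the members' differences was not tested.

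For the Ring1b hairpin, the 3 libraries differed from each other more than the groups did in several laminin chains. Lama1 was at 446, 1542 and 123 CPM in shRing1b replicates 1, 2 and 3, against 369, 274 and 263 CPM in untransfected cells. Lamb1 was at 414, 1060.4 and 175 CPM against 298, 244 and 249 CPM. Lamc1 was at 966, 1879 and 579 CPM against 694, 781 and 748 CPM. Replicate 2 was the highest and replicate 3 the lowest of all 6 libraries for each of the 3 chains that make up one laminin.

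The summed level of the 14 extraembryonic endoderm markers, a list with no matrix gene, followed the same order within the shRing1b libraries. It was 205, 1303 and 71.7 CPM in shRing1b replicates 1, 2 and 3 and 145, 189 and 122 CPM in untransfected replicates 1, 2 and 3. Among untransfected libraries the sum was highest in replicate 2, while Lama1 and Lamb1 were highest in replicate 1. Among its regulators, Gata4 was at 22.7, 77.2 and 2.97 CPM against 17.3, 11.3 and 10.3 CPM, with replicate 3 below every untransfected library. Gata6 was at 10.5, 56.9 and 7.66 CPM against 9.75, 7.70 and 5.50 CPM, with replicate 3 inside the untransfected range. Hnf4a was at 2.83, 14.7 and 10.1 CPM against 6.79, 5.27 and 6.35 CPM, so single markers did not all keep the order of the sum: here replicate 1 was the lowest and replicate 3 lay above every untransfected library. None of the 14 markers was at 0 throughout the shRing1b group. The summed trophectoderm markers were at 79.7 to 124 CPM against 26.3 to 39.5 CPM. The part of cells of that type in the laminin levels was not tested.

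**Figure D4:**
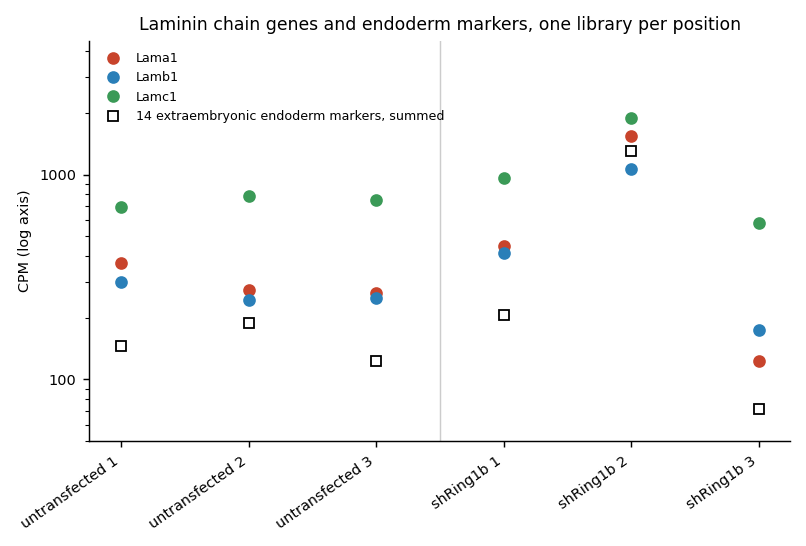
CPM (log axis) of Lama1, Lamb1 and Lamc1 (filled circles) and the summed CPM of 14 extraembryonic endoderm markers (open squares) in each untransfected and shRing1b library. All 4 values are highest in shRing1b replicate 2 and lowest in shRing1b replicate 3.

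In the test of shRing1b against untransfected mESCs, 4 members (12.9%) were called higher, beside 9.68% of all genes tested, and 2 (6.45%) lower, beside 5.42%. Itga3 was at 71.8, 65.5 and 55.5 CPM against 42.8, 49.2 and 32.3 CPM, with no overlap (log2 change 0.63, SE 0.15, adjusted p = 0.0064). Lamb1 was called with overlapping groups (log2 change 1.06, SE 0.33, adjusted p = 0.0323), and without replicate 2 its log2 change was 0.16 (adjusted p = 0.63). Itga11 was at 0.438, 0.290 and 0.0891 CPM against 0.111, 0.0399 and 0.0371 CPM (log2 change 2.03, SE 0.58, adjusted p = 0.0226). Itgb6 was the other member called higher and is under 1 CPM in every group. It had 28 counts over the shRing1b group and 1 over the untransfected group. It could pass the filter on low counts through shRing1b libraries together with shMed12 libraries, so its call adds no support.

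The 2 lower members were Itga6, at 208 ± 37.1 against 300.5 ± 11.8 CPM (adjusted p = 0.0207), and Itga9, at 46.0 ± 1.73 against 64.9 ± 16.8 CPM (adjusted p = 0.0401). With only these 2 groups in the fit, no member and no gene was called. The count of members called higher was 10 without replicate 3, the library whose Rnf2 level goes against its label, 1 without replicate 2, 2 without untransfected replicate 2 and 0 without untransfected replicate 3. The share of all genes called higher moved with it, from 9.68% to 14% without replicate 3, 8.6% without replicate 2, 7.45% without untransfected replicate 2 and 5.17% without untransfected replicate 3. With shNMC mESCs as the reference 7 members were higher, beside 12.9% of all genes. Without untransfected replicate 3 all 6 calls were lost, with an adjusted p of 0.0505 for Itga3.

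Carrying the control hairpin was compared with no transfection. Between shNMC and untransfected mESCs, 0 of the 31 members were called in either direction, beside 0.00614% of all genes higher and 0% lower. The count was also 0 at an unadjusted p under 0.05, which 608 genes passed, and with DESeq2, beside 0.00615% higher and 0% lower. Lama1 was at 229 ± 18.9 against 302 ± 58.3 CPM (log2 change -0.40, SE 0.45) and Itga3 at 34.7 ± 5.85 against 41.4 ± 8.51 CPM (log2 change -0.26, SE 0.15).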

How the data were processed

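PolyA-selected, strand-specific RNA-seq with 50-base reads was made from 24 libraries in 8 groups of 3. The submitters' processing notes name build mm9, the aligner STAR 2.3.1z13, the counter HTSeq 0.6.1p1, bcl2fastq 1.8.4, DESeq2 1.6.3 and SAMtools 1.2. The deposited values are raw counts per gene, 1 table per library, and the strand setting of the counting is not given in the sources used here. Summary lines that name no gene were left out of library sizes and tests.

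Counts were fitted with edgeR 4.0.16 (R 4.3.3; quasi-likelihood, robust, TMM, filterByExpr by group) over all 24 libraries without a replicate block, leaving 16 residual degrees of freedom. The 11 comparisons were two-sided, called at a Benjamini-Hochberg adjusted p under 0.05 over 16280 genes. CPM used TMM-scaled library sizes. Gene counts of 27.4 M to 57.3 M per library limit the precision of low values; intervals and floors of 3 counts cover counting error only. Levels per kb used GENCODE M21 coding lengths in place of protein lengths. Exon overlaps come from the same annotation.

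Members and lists were chosen with earlier results of these data known. A member with at least 1 CPM in some group was given in every library where it was called with a log2 change of at least 1 in size, and otherwise by its mean ± SD. Genes of other lists were named as the 2 largest rises and falls called. The alternatives were median-ratio size factors, no filter, DESeq2 1.42.0, only the groups compared, a replicate block, each library left out, shNMC as the shRing1b reference and, added after seeing the data, a fit without the shRing1b libraries. Replicate numbers come from the labels. Same-numbered libraries deviated together, with all correlations over 0.1, in shCdk8 against shNMC after RA (0.475, 0.287 and 0.537) and in shMed12 against shCdk8 mESCs (0.195, 0.157 and 0.339), and not in the other comparisons. 1 member is not reported here beyond its place in the counts.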

Additional observations from a re-analysis of the deposited data

Results flagged for a closer look

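Itga11 was picked out because the shMed12 difference itself differed between mESCs and RA-treated cells by a test of the interaction. The log2 change in shMed12 against shNMC cells was lower after RA than in mESCs by -3.572 (edgeR quasi-likelihood test, adjusted p = 8.5e-05). Group means were 1.48 against 0.0992 CPM in mESCs and 2.14 against 1.77 CPM after RA. The call is not independent of the filter on low counts, which Itga11 could pass through the groups other than shNMC mESCs.

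Itga8 was picked out in the same way, with a difference of the log2 changes of -1.047 (edgeR quasi-likelihood test, adjusted p = 0.00806). Group means were 13.2 against 4.30 CPM in mESCs and 12.4 against 8.38 CPM after RA.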

How the results depend on the processing

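Of 92 calls of members over all comparisons, 28 were lost in at least 1 alternative run and 0 reversed. The other 64 kept their direction and their side of the threshold in every run that tested them. A run in which a gene had no adjusted p was left out, as for Itgb6 in shMed12 against shNMC after RA, which had 10 alternatives. Of 1108 alternative values, 999 kept the call and 109 did not. The cause of these moves was not tested. Median log2 changes of all genes differed by under 0.1 between TMM and median-ratio scaling.

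With the replicate block, genes called went from 596 to 905 for shCdk8 in mESCs and from 6 to 11 for the interaction of shCdk8 and RA. Members with a positive interaction of shMed12 and RA went from 0 to 1, beside 2.43% of all genes. Lamb1 lost its calls for shRing1b (adjusted p = 0.0624) and for shMed12 after RA (0.0502). The block raised the members called higher from 10 to 12 for RA in shNMC cells, beside 28.6% of all genes. It raised them from 6 to 7 for RA in shMed12 cells (21.2%). Those lower went from 4 to 5 for shMed12 against shCdk8 (19%). The block removed no other member's call. With DESeq2, genes called were 1147 for shCdk8 in mESCs, with 1 member higher beside 4.32% of its genes tested. They were 1250 for the interaction of shMed12 and RA and 27 for that of shCdk8 and RA. Without the filter, 1 member was lower for shCdk8 in mESCs, beside 0.879% of all genes.

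With only the groups compared, genes called were 2334 for shCdk8 in mESCs, with 3 members higher beside 8.97% of all genes. For shRing1b they were 0, with 0 members higher and 0 lower. They were 2744 for shCdk8 after RA, with 7 members higher beside 9.62% of all genes. For the interaction of shMed12 and RA they were 2237, with 3 members positive beside 4.43% and 4 negative beside 9.55%. They were 38 for the interaction of shCdk8 and RA and 0 for shNMC against untransfected cells. Members called lower were then 8 for RA in shNMC cells (28.2% of all genes), 10 for RA in shMed12 cells (25.3%) and 8 for shMed12 against shCdk8 (24.1%). With shNMC as the reference, 7 members were higher for shRing1b, beside 12.9% of all genes.

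In the fit without the shRing1b libraries, genes called were 1867 for shCdk8 in mESCs, with 2 members higher beside 7.02% of all genes. They were 2885 for shCdk8 after RA, with 8 members higher (9.6%). For the interaction of shMed12 and RA they were 1862, with 2 members positive (4.52%), and for that of shCdk8 and RA 36. For RA in shMed12 cells, 9 members were lower (22% of all genes).

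Leaving out 1 library at a time, genes called ranged from 170 to 282 for shCdk8 in mESCs. There 0 to 1 members were lower, beside 0.334% to 0.638% of all genes. For shRing1b they ranged from 1328 to 3900, with 0 to 10 members higher (5.17% to 14% of all genes) and 0 to 3 lower (2.9% to 9.71%). For shCdk8 after RA they ranged from 482 to 922, with 0 to 3 members higher (1.76% to 3.01%) and 1 to 2 lower (1.18% to 2.89%). For the interaction of shMed12 and RA they ranged from 489 to 830, with 0 to 1 members positive (0.828% to 1.55% of all genes). For that of shCdk8 and RA they ranged from 3 to 6. For shMed12 after RA, 5 to 7 members were lower, beside 15.9% to 18.9% of all genes. Without RA shMed12 replicate 2 there were 5, beside 15.9%. Depth limits Itga2, Itgb6 and Itgb8 most, which stayed under 1 CPM in every group.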
